A study of Homo sapiens with 4 samples.

Results

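Transforming growth factor beta (TGF-beta) signalling was read on 4 Agilent 2-colour arrays through 9 genes, namely TGFB1, TGFB2, TGFBR1, SMAD3, SMAD7, TGFBI, ID1, ID2 and ID3. Probes were taken by gene name, with no measured value in the rule, and 11 of the 41000 different probes on the array carry one of these names, which is 9 of 30982 gene names. The genes, and the pathway list used further below, were however chosen with earlier results of these data known. Their shares of called probes are therefore not those of a set picked blind to the data. SMAD3 and ID2 have 2 probes each and the other genes have 1. The RNA came from HCT116, a human colon cancer cell line with defective mismatch repair, whose TGF-beta type II receptor gene is known to carry a frameshift. The study compared 2 stable clones that express shRNA against the long non-coding RNA N-BLR, clone #3-1 and clone #4-7, with cells carrying the empty vector. Each clone was hybridised on 2 arrays, and the control RNA was the other channel of all 4. Each clone is a single clone. The labels describe lentiviral transduction, whereas the methods describe transfection of an shRNA vector, and the 2 arrays of a clone are called biological replicates in the labels and duplicates in the methods, so their spread may be technical. The control counts as 1 sample, and its own spread does not enter the tests.

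TGF-beta is secreted in a latent form and, once released, brings type I and type II receptor kinases together. The type I receptor phosphorylates SMAD2 and SMAD3, which join SMAD4 and move to the nucleus, while bone morphogenetic proteins (BMPs) act in the same way through SMAD1, SMAD5 and SMAD9. SMAD7 is an inhibitory SMAD that the pathway itself induces. The ID proteins are helix-loop-helix factors without a DNA-binding region that hold E proteins off DNA, and their genes are well-known targets of BMP signalling, while TGF-beta can raise or lower them depending on the cell.

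The channel that holds each RNA was not settled, which bears on every sign given here. By the labels, the clone's RNA carried Cy5 and the vector control's RNA Cy3 on all 4 arrays, no array has the dyes exchanged, and the methods name no dye. On the arrays, both VIM probes were higher in Cy5, by 4.46 and 4.05 on the log2 scale in clone #3-1 and by 2.32 and 2.26 in clone #4-7. The CDH1 probe was lower in Cy5, with log2 ratios of -2.65 and -1.37. With the labelled dyes this direction is the opposite of the one the study's text gives for both genes in its clones. The study gives its direction by qRT-PCR and immunofluorescence of the clones as well as by microarray. The Cy3 channel, labelled as the same control RNA throughout, differed between the clones at 23.2% of probes when each dye was tested alone, whereas Cy5 differed at 0.186%. Among 28541 probes above background, the median absolute difference between the clones was 0.213 in Cy3 and 0.0653 in Cy5 (log2), against 0.0457 to 0.0669 between arrays of the same clone. Values are therefore given as higher in Cy5 or in Cy3, with the sign of the labels. If the channels were exchanged, every sign would turn while sizes and p-values would stay.

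The sequences that carry the measurements come first, so that it is clear what each probe could bind. Every probe is 60 bases long, and those of TGFB1, ID2 (A_23_P143143) and ID3 are shown. Whether the other probes lie in coding sequence was not determined. In the TGFB1 probe (chr19:46529982-46539642, minus strand, build hg17, a span that joins more than 1 exon) capitals mark the cysteine codons of its open reading frame. In the ID2 probe A_23_P143143 (chr2:8773240-8773628, plus strand, hg17) capitals mark the stop codon that ends the frame. The ID3 probe (chr1:23630972-23631031, minus strand, hg17) is open over its whole length and has no capitals.
TGFB1: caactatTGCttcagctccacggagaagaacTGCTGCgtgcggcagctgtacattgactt
ID2: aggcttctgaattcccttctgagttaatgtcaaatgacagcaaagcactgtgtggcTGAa
ID3: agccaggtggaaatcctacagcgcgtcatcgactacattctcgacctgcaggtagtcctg

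SMAD7, ID1, ID2 and ID3 moved together in the comparison of the clones, so the 250 bases before their transcription starts are also shown (RefSeq, build GRCh38.p14), with the letters GTCT or the reverse AGAC in capitals. These letters are the core that SMAD3 and SMAD4 are known to bind. SMAD7 (chr18:48950966-48951215, minus strand, the first of its RefSeq starts) holds 4 of them, ID1 (chr20:31605039-31605288, plus strand) 3, ID2 (chr2:8681806-8682055, plus strand) 2 and ID3 (chr1:23559502-23559751, minus strand) 2. Of the other members, TGFB2 holds 3, TGFBR1 and TGFBI 1 each, and TGFB1 and SMAD3 hold 0. TGFB1 moved in the same direction as these 4. TGFBI, whose probe was dim and has no firm ratio, did so in Cy3 alone, by at least 1.64-fold. The 4 promoters were picked by their result in these data, so their counts are not those of a set picked blind to it.
SMAD7: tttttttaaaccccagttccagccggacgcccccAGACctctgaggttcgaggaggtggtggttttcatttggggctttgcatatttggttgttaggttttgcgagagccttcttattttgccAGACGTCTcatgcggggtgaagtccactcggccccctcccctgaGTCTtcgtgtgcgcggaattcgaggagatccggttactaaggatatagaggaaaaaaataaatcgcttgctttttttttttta
ID1: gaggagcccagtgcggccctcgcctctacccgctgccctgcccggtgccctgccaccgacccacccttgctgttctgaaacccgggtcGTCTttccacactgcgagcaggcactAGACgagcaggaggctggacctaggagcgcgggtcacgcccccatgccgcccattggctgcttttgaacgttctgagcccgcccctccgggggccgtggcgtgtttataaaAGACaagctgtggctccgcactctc
ID2: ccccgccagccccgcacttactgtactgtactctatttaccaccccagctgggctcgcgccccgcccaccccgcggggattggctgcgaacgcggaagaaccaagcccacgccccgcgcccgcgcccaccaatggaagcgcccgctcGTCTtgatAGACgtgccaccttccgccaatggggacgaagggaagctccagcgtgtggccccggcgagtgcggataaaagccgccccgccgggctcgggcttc
ID3: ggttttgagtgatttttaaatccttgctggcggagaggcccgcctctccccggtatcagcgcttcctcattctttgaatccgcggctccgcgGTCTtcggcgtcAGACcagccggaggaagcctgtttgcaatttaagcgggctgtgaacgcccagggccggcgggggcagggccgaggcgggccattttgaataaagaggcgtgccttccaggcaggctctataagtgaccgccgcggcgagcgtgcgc
So short a motif is common: 77.6% of 27305 promoter windows of this length hold at least 1 on either strand and 45.8% hold at least 2. The full palindrome GTCTAGAC was found in 0.176% of the windows and in none of these 4. The letters GGCGCC, known from BMP-responsive elements, were found in 16.1% of the windows and in none of these 4, but SMAD3 held 2 and TGFBI 1. A match describes these letters only.

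Among the 11 probes, 4 passed p under 0.001 in clone #3-1 (limma's moderated test of log2 Cy5 over Cy3 against 0), with 2 higher in Cy5 and 2 lower. In clone #4-7, 9 passed, with 1 higher and 8 lower. Over all 41000 probes, 30.6% passed in clone #3-1 and 26.8% in clone #4-7, and those lower in Cy5 made up 15.6% and 14.9%. The median log2 ratio of the 11 probes was 0.005 in clone #3-1 and -0.66 in clone #4-7, against 0.008 and -0.004 over all probes. The difference between the clones in this ratio passed for 8 probes, against 20.0% of all probes. The ratio was higher in clone #3-1 for 6 of them and lower for 2, against 10.8% and 9.17% of all probes. A higher ratio is not a higher signal. For ID3 the ratio was higher in clone #3-1 although both dyes were lower there (log2 differences of -2.49 in Cy3 and -0.51 in Cy5). The shares of all probes include dim ones. With only probes well above background, 9 of the 11 remained, and 5, 8 and 8 of them passed in these comparisons. Of the 28575 such probes on the array, 14088, 12767 and 9920 passed. Both clones share the control RNA, so their ratios are not independent of each other.

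**Figure D1:**
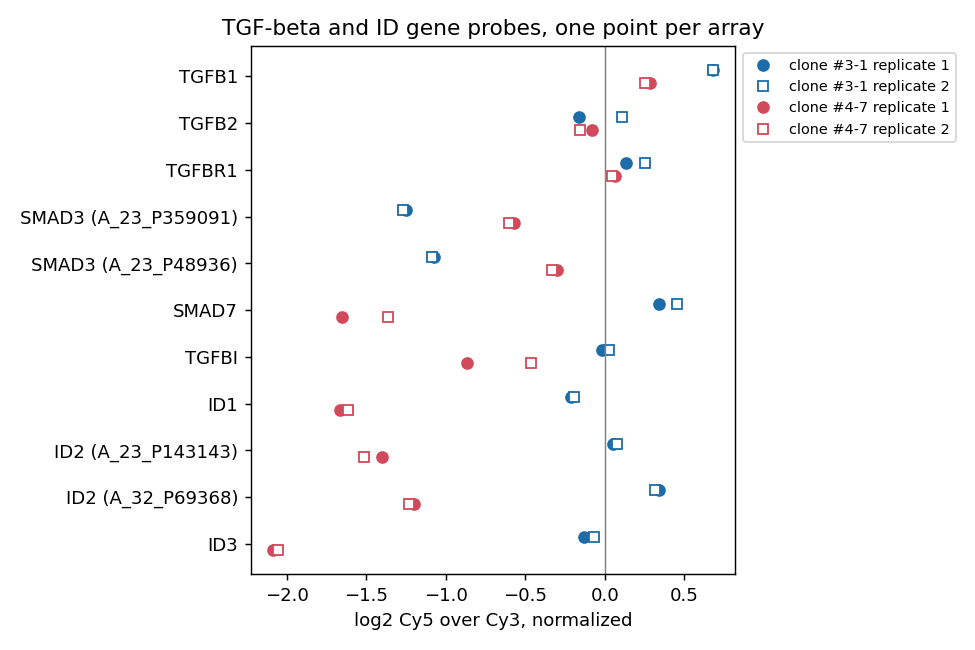
Normalized log2 Cy5 over Cy3 of each probe, with a point for each array (blue for clone #3-1, red for clone #4-7, filled circles for replicate 1 and open squares for replicate 2). SMAD7, ID1, ID2 and ID3 lay at -1.20 or below on the clone #4-7 arrays and between -0.21 and 0.45 on those of clone #3-1, whereas both SMAD3 probes were lower on the clone #3-1 arrays.

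Of the ligands, TGFB1, which encodes the most widely expressed TGF-beta, was higher in Cy5 in both clones. Its log2 ratio was 0.68 on both arrays of clone #3-1, and 0.29 and 0.25 on those of clone #4-7. Each pair of arrays lay close together compared with the gap between the clones. The mean was 1.61-fold in clone #3-1 (log2 0.68 ± 0.00082, SD, n = 2, limma adjusted p = 8.28e-05) and 1.21-fold in clone #4-7 (0.27 ± 0.023, adjusted p = 0.00146). The difference of 0.41 ± 0.042 (SE) had an adjusted p of 0.00166. The TGFB1 probe is printed as 10 spots, and over those spots the SD of the log2 ratio of processed intensities was 0.0237 to 0.047 on each array. Its call in clone #4-7 and the call of the difference were lost under several of the alternative settings, the first without either array of clone #4-7 (0.25 and 0.29) and the second without any single array (0.40 to 0.43). With median centring the clone #3-1 mean was 1.22 and the difference 0.83, which did not pass.

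The mean Cy3 signal of TGFB1, before normalization, was 769 and 765 on the clone #3-1 arrays and 1063 and 1066 on the clone #4-7 arrays. Its Cy5 signal was 3655, 3677, 3995 and 4229. After normalization, the clones differed by 0.42 ± 0.044 (SE, log2) in Cy3, with the higher value in clone #4-7, and by -0.0085 in Cy5 (clone #3-1 minus clone #4-7). The Cy3 call was lost without clone #4-7 replicate 2 (-0.42), with processed intensities (-0.24), with median centring (-0.63) and with no normalization between arrays (-0.55).

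TGFB2 encodes another TGF-beta isoform. Its probe was not well above background in either channel on any array, so no fold change is given. Its unnormalized signals were 61 to 73 in Cy3 and 81 to 95 in Cy5. TGFB2 was thus not measured here, which does not show that the gene was silent.

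The type I receptor gene TGFBR1 did not pass the threshold in any comparison. Its log2 ratio was 0.13 and 0.25 in clone #3-1 and 0.07 and 0.04 in clone #4-7. All 4 values were above 0. The difference between the clones was 0.14 (95% interval -0.01 to 0.28, limma adjusted p = 0.117), an interval that holds both 0 and differences of up to 0.28. In clone #3-1 the mean of 0.19 (95% interval 0.09 to 0.30) had an adjusted p of 0.0116 while its unadjusted p missed 0.001.

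SMAD3, the signal-carrying SMAD of TGF-beta, was lower in Cy5 in both clones and by more in clone #3-1. Probe A_23_P48936 (chr15:65274445-65274504, plus strand, hg17), printed as 10 spots, gave log2 ratios of -1.07 and -1.08 in clone #3-1 and -0.30 and -0.33 in clone #4-7. Probe A_23_P359091 (chr15:65270577-65270637, plus strand, hg17), which the array assigns to another SMAD3 transcript record, gave -1.25 and -1.27 in clone #3-1 and -0.57 and -0.60 in clone #4-7. Both probes thus had the same sign and order on all 4 arrays.

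The mean of probe A_23_P359091 was 2.40-fold higher in Cy3 in clone #3-1 (log2 -1.26 ± 0.011, limma adjusted p = 3.22e-05) and 1.502-fold higher in Cy3 in clone #4-7 (-0.59 ± 0.022, adjusted p = 0.000163). For A_23_P48936 the means were 2.11-fold (-1.08 ± 0.0077, adjusted p = 3.87e-05) and 1.24-fold (-0.32 ± 0.023, adjusted p = 0.000894). Between the clones, the differences were -0.67 ± 0.042 and -0.76 ± 0.042 (SE), with adjusted p of 0.000468 and 0.000348. With arrays centred on their median in place of loess, both probes stayed lower in Cy5 and no SMAD3 call passed the threshold. The values were then -0.62 and -0.44 in the 2 clones for A_23_P359091 and -0.39 and -0.13 for A_23_P48936, with differences of -0.19 and -0.26. The call of A_23_P48936 in clone #4-7 was also lost without either array of that clone (-0.33 and -0.30).

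In the single channels, the unnormalized Cy3 signal of A_23_P359091 was 3578 and 3558 on the clone #3-1 arrays and 2234 and 2191 on the clone #4-7 arrays. Its Cy5 signal stayed between 4732 and 4873 on all 4. The normalized Cy3 intensity was 0.77 ± 0.046 (SE, log2) higher in clone #3-1 for this probe and 0.93 ± 0.078 higher for the other, with adjusted p of 1.86e-05 and 8.23e-05. In Cy5 the differences were 0.10 and 0.17, with adjusted p of 0.499 and 0.494.

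SMAD7, the inhibitory SMAD, had a different sign in each clone. Its log2 ratio was 0.34 and 0.45 in clone #3-1 and -1.65 and -1.36 in clone #4-7 (A_23_P55518, chr18:44700780-44700839, minus strand, hg17). The 2 groups lay on opposite sides of 0. In clone #4-7, SMAD7 was 2.85-fold higher in Cy3 (-1.51 ± 0.20, limma adjusted p = 0.00016). In clone #3-1 the mean of 0.40 ± 0.079 did not pass p under 0.001, with an adjusted p of 0.0089, but it passed when either array of clone #4-7 was left out (0.40 both times), and also with the replicate block (0.40), an intensity trend (0.40) or quantile normalization (0.38). The clones differed by 1.91 ± 0.11 (SE), or 3.75-fold, with an adjusted p of 0.000364. These sizes depended on the background correction. The difference was 2.48 with an offset of 0, 2.83 with plain subtraction and 2.97 with processed intensities, and the clone #3-1 mean was 0.72, 0.82 and 0.79.

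The Cy3 signal of SMAD7 was low on the clone #3-1 arrays and higher on those of clone #4-7. Unnormalized, it was 81 on both clone #3-1 arrays, and 401 and 396 on the clone #4-7 arrays. The Cy5 signal was 198 and 207, then 311 and 326. Both channels were well above background on all 4 arrays. Normalized, Cy3 was 5.06-fold higher in clone #4-7 (log2 difference -2.34 ± 0.11, SE, clone #3-1 minus clone #4-7, adjusted p = 5.45e-06), and the difference in Cy5 was -0.43 ± 0.11 (adjusted p = 0.49), past p under 0.001 when clone #4-7 replicate 1 was left out (-0.57), with plain subtraction (-0.76) or with quantile normalization (-0.41). The Cy3 difference was -3.23 with an offset of 0, -3.59 with plain subtraction and -3.51 with processed intensities.

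TGFBI encodes a secreted matrix protein named for its induction by TGF-beta. Its probe was not well above background in either channel on the clone #3-1 arrays, so no fold is given there. On both clone #4-7 arrays Cy3 was well above background and Cy5 was not, with unnormalized Cy3 signals of 107 and 109. TGFBI was on average 1.59-fold higher in Cy3 in clone #4-7, with log2 ratios of -0.86 and -0.46 (limma adjusted p = 0.00373). The 1.59-fold is a mean and not a lower bound, since replicate 2 gave the smaller ratio of -0.46. A floor for Cy5 was also set. On each array that floor was the lowest value of any probe well above background or the probe's own value, whichever was larger. The probe's own value was the larger on both arrays, so the floor returned the same 1.59-fold and is no second check. In Cy3 alone, TGFBI was at least 1.64-fold higher on the clone #4-7 arrays than on those of clone #3-1 (adjusted p = 0.00411). Of the 9 calls among these genes in clone #4-7, this one was nearest the threshold, with an unadjusted limma p of 0.000996. Without either array of clone #3-1 it was lost, in the ratio (-0.66) and in Cy3 alone. Its log2 ratio in clone #4-7 was -1.21 with an offset of 0, where the call was also lost, -1.96 with plain subtraction and -4.02 with processed intensities. No size is given for the difference between the clones, since neither channel was measured in clone #3-1.

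The ID genes had 4 probes. In clone #4-7, all 4 ID probes were lower in Cy5 by more than 1 on the log2 scale. In clone #3-1, 1 of the 4 passed the threshold, against 30.6% of all probes, and it was higher in Cy5. The difference between the clones passed for all 4, against 20.0% of all probes.

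The log2 ratio of ID3 was -0.13 and -0.07 in clone #3-1 and -2.09 and -2.06 in clone #4-7. The groups were far apart compared with the gap between arrays of a clone. In clone #4-7, ID3 was 4.21-fold higher in Cy3 (-2.07 ± 0.022, limma adjusted p = 2.41e-05). In clone #3-1 the mean was -0.10 ± 0.044 with an adjusted p of 0.051, and it turned to 0.52 when arrays were centred on their median. Between the clones, the difference was 1.97 ± 0.046 (SE, adjusted p = 7.57e-05).

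The ID3 signal moved in both channels. Unnormalized Cy3 was 2145 and 2139 on the clone #3-1 arrays and 12308 and 12258 on the clone #4-7 arrays, while Cy5 was 6126 and 6501, then 10029 and 10743. Normalized Cy3 was 5.60-fold higher in clone #4-7 (adjusted p = 1.43e-07) and Cy5 was 1.43-fold higher in clone #4-7 (-0.51 ± 0.046, SE, adjusted p = 0.0337). Of the 11 probes, only that of ID3 was past p under 0.001 in Cy5 alone, and that call was lost when Feature Extraction's processed intensities, median centring or no normalization between arrays was used.

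ID1 had log2 ratios of -0.21 and -0.19 in clone #3-1 and -1.67 and -1.61 in clone #4-7 (A_23_P252306, chr20:29657819-29657878, plus strand, hg17). In clone #4-7 it was 3.12-fold higher in Cy3 (-1.64 ± 0.037, limma adjusted p = 3.21e-05). In clone #3-1 the mean of -0.20 ± 0.013 missed p under 0.001, with an adjusted p of 0.00415, and turned to 0.65 when arrays were centred on their median. The clones differed by 1.44 ± 0.044 (SE, adjusted p = 0.000107).

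The ID1 probe was bright. Its unnormalized Cy3 signal was 25787 and 25371 on the clone #3-1 arrays and 70735 and 68896 on the clone #4-7 arrays, and no spot was marked as saturated. Its Cy5 signal was 81015 and 83374, then 90149 and 93964. The clones differed 2.58-fold in normalized Cy3 (adjusted p = 2.88e-06), and by 0.07 ± 0.053 (SE, log2) in Cy5 (adjusted p = 0.639).

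Both ID2 probes gave the same difference between the clones. Probe A_23_P143143, shown above, had log2 ratios of 0.05 and 0.08 in clone #3-1 and -1.40 and -1.51 in clone #4-7. Probe A_32_P69368 (chr2:8774880-8774939, plus strand, hg17) had 0.34 and 0.32, then -1.20 and -1.23. In each case the clones lay far apart.

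In clone #4-7, ID2 was 2.74-fold higher in Cy3 by the first probe (-1.46 ± 0.079, limma adjusted p = 5.72e-05) and 2.32-fold by the second (-1.22 ± 0.023, adjusted p = 5.21e-05). The probes disagreed in clone #3-1, where the first gave 0.06 ± 0.020 (adjusted p = 0.225) and the second 0.33 ± 0.015 (adjusted p = 0.000662), a call lost without either array of clone #3-1 (0.32 and 0.34), with an offset of 0 and with plain subtraction (0.33 each). With median centring the clone #3-1 means were 0.80 and 1.02. The clones differed by 1.52 ± 0.055 and 1.55 ± 0.042 (SE), with adjusted p of 0.000145 and 9.96e-05. Normalized Cy3 was 2.79-fold and 2.85-fold higher in clone #4-7, while the differences in Cy5 were 0.04 and 0.03 on the log2 scale.

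**Figure D2:**
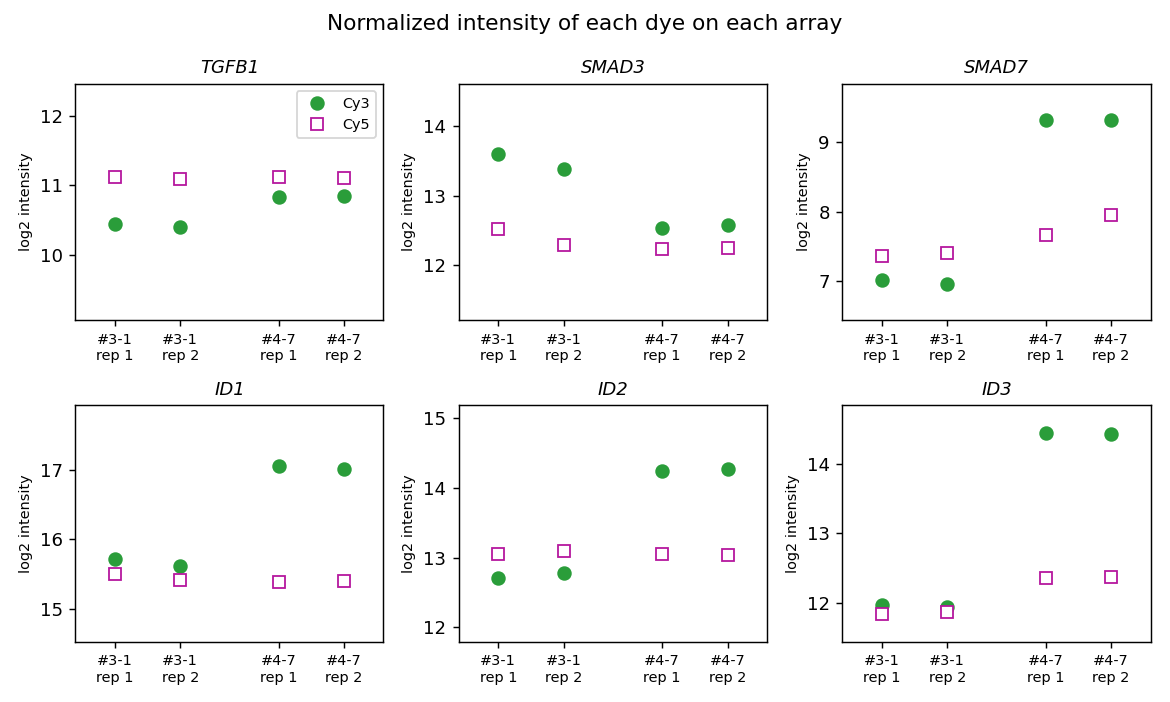
Normalized log2 intensity of Cy3 (filled green circles) and Cy5 (open purple squares) on each array for TGFB1, SMAD3 (A_23_P48936), SMAD7, ID1, ID2 (A_32_P69368) and ID3, each panel spanning the same log2 range. Cy3 shifted between the clones in every panel, and for ID1 and ID2 the Cy5 points stayed nearly level, with differences between the clones of 0.07 and 0.03.

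Each dye was then compared between the clones on its own, in a limma fit of separate channels. In Cy3, 9 of the 11 probes passed p under 0.001, against 23.2% of all probes. Of these, 7 were higher on the clone #4-7 arrays (TGFB1, SMAD7, TGFBI, ID1, both ID2 probes and ID3) and both SMAD3 probes were higher on those of clone #3-1. In Cy5, 1 of the 11 passed, with the lower value in clone #3-1, against 0.186% of all probes (0.0733% higher and 0.112% lower). Separate channels lie open to array effects that a ratio cancels, and this comparison was added after the data were seen.

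**Figure D3:**
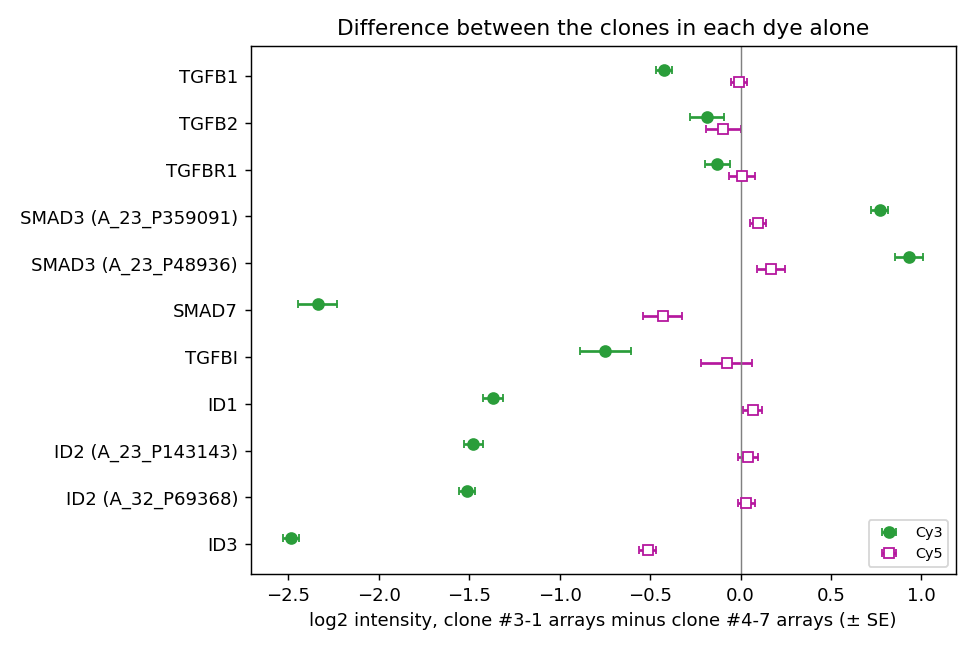
Difference between the clones in log2 intensity of each dye alone, clone #3-1 arrays minus clone #4-7 arrays, with standard errors (Cy3 filled green circles, Cy5 open purple squares). Cy3 ranged from -2.49 for ID3 to 0.93 for SMAD3, whereas Cy5 lay between -0.51 and 0.17.

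The surroundings of the 9 genes were read from a list of 111 other ligands, receptors, SMADs, antagonists, regulators and targets of the TGF-beta and BMP pathways, of which 109 had a probe and 171 probes were fitted. In clone #3-1, 70 of the 171 passed p under 0.001, 35 higher and 35 lower in Cy5, against 30.6% of all probes. In clone #4-7, 62 passed, 24 higher and 38 lower, against 26.8%. The difference between the clones passed for 47, with the ratio higher in clone #3-1 for 31 and lower for 16, against 20.0%. The median log2 ratios of the list were -0.01 and -0.01, close to those of all probes. The shares of all probes include dim ones. With only probes well above background, 77, 69 and 55 of 135 list probes passed, against 14088, 12767 and 9920 of 28575 on the array. The shares of the list then lay closer to those of the array.

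Known transcriptional targets were called most often. Of their 27 probes (18 genes), 21 passed in clone #3-1, 17 in clone #4-7 and 18 for the difference (77.8%, 63.0% and 66.7%). The shares of all probes were 30.6%, 26.8% and 20.0%. CCN2, a matricellular protein and a common readout of TGF-beta, had log2 ratios of 1.17 and 1.20 in clone #3-1 and -2.51 and -2.19 in clone #4-7. The difference of 3.53 was larger than that of any of the 9 genes. ATF3, a stress-induced transcription factor, gave -2.92 and -2.49 by its 2 probes in clone #4-7, with differences between the clones of 2.52 and 2.10.

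Other targets moved in their own ways. PMEPA1, which encodes a membrane inhibitor of TGF-beta signalling, was higher in Cy5 in clone #3-1 with a mean of 1.52, and by its other probe at least 1.84-fold. TSC22D1, a TGF-beta-stimulated gene, was 0.94 higher in Cy5 in clone #3-1. TAGLN, an actin-binding protein of smooth muscle, was lower in clone #3-1 by both probes, with means of -0.78 and -0.77. CDKN1A, a cell cycle inhibitor, gave -0.77 in clone #3-1 by probe A_24_P89457, and its 2 probes differed between the clones by -1.37 and -1.26. ANGPTL4, a secreted regulator of lipid metabolism, was 1.03 higher in Cy5 in clone #4-7 and differed by -1.55.

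Among the 21 BMP ligand probes (16 genes), 4 passed in clone #3-1, 5 in clone #4-7 and 1 for the difference, which is 19.0%, 23.8% and 4.76% against 30.6%, 26.8% and 20.0% of all probes. The last was BMP4, which had log2 ratios of 2.60 and 2.59 in clone #3-1 and -0.70 and -0.67 in clone #4-7. BMP6 was lower in Cy5 in both, with means of -1.19 and -1.48. Of the 16 TGF-beta and activin ligand probes, 5 passed in clone #3-1 (31.2%) and 3 in clone #4-7 (18.8%), all higher in Cy5. For the difference 0 of them passed p under 0.001 in limma, with 6 at an unadjusted p under 0.05. INHBB, an activin subunit, had a mean of 1.02 in clone #4-7.

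Antagonists outside the cell and at the membrane had 16 probes, with 6, 5 and 1 past the threshold in clone #3-1, in clone #4-7 and for the difference (37.5%, 31.2% and 6.25%, against 30.6%, 26.8% and 20.0% of all probes). The last was BAMBI, a decoy receptor, with log2 ratios of -0.62 and -0.57 in clone #3-1 and -2.51 and -2.41 in clone #4-7. FST, which binds activin, and TWSG1, which binds BMPs, were higher in Cy5 in clone #4-7, with means of 1.02 for FST and of 0.92 and 0.76 for 2 of the 3 probes of TWSG1. Among the 10 probes of other SMADs, 6 passed in clone #3-1, 5 in clone #4-7 and 5 for the difference (60%, 50% and 50%). SMAD9, which carries BMP signals, gave -0.83 in clone #3-1.

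Receptors had 19 probes, of which 5, 6 and 5 passed (26.3%, 31.6% and 26.3%), close to the shares of all probes (30.6%, 26.8% and 20.0%). ACVR1C, a type I receptor of the activin branch, differed between the clones by -0.97. Genes of the latent complex and its activation had 20 probes, with 4, 7 and 5 past the threshold (20%, 35% and 25%). LTBP2, a latent TGF-beta binding protein, differed by -0.82 by probe A_23_P218144. Intracellular regulators had 35 probes with 16, 12 and 10 past the threshold (45.7%, 34.3% and 28.6%). ID4, another member of the ID family, and the E proteins together had 7 probes, with 3, 2 and 2 past the threshold (42.9%, 28.6% and 28.6%).

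**Figure D4:**
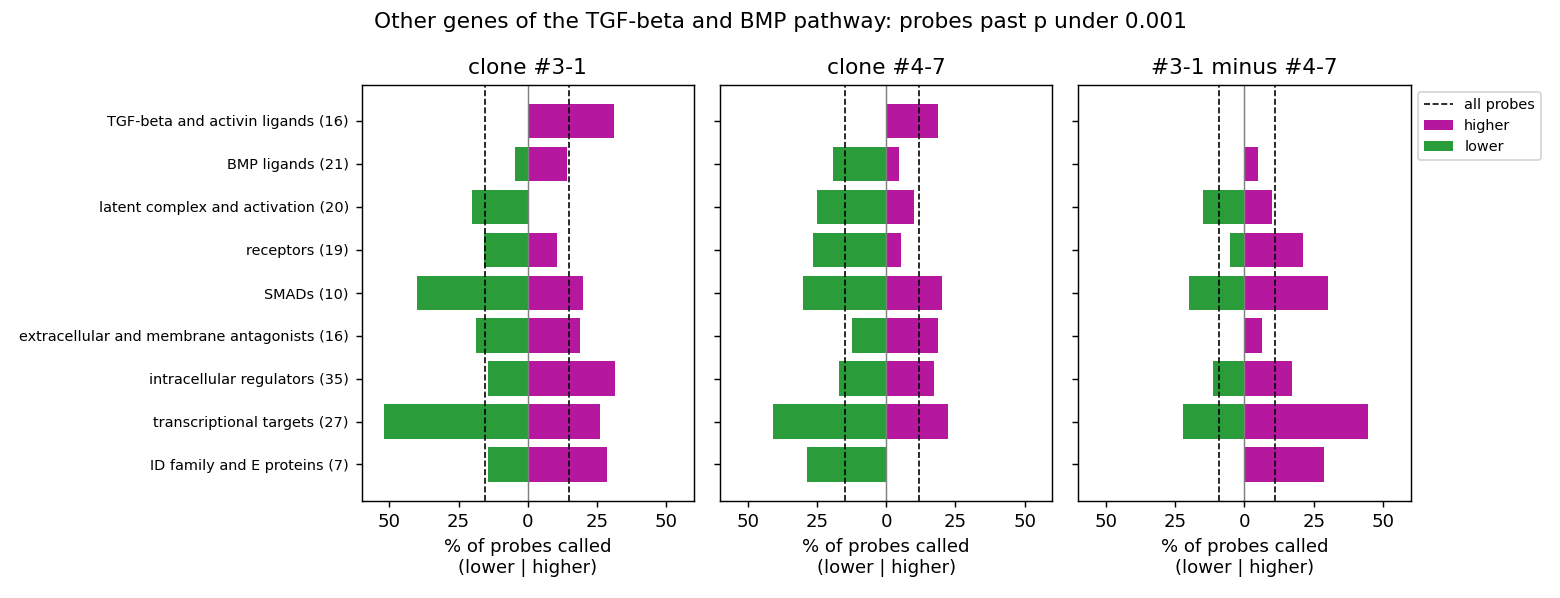
Share of the probes of each role in the pathway list past p under 0.001, in percent. Those higher in Cy5 lie to the right in purple and those lower to the left in green. For the difference, the right holds probes whose ratio of Cy5 over Cy3 was higher in clone #3-1. The number of probes is given beside each role, and dashed lines mark the share over all 41000 probes, such as 15.0% and 15.6% in clone #3-1. Transcriptional targets stood furthest from those lines, with 14 of 27 probes lower in clone #3-1.

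As a check of the labelled cell type, 7 of 8 colon epithelial markers (EPCAM, KRT8, KRT18, KRT19, CDH1, CDX2 and LGALS4) were well above background in both channels of every array, while VIL1 was in neither channel of any. Among markers of leukocytes, endothelium and fibroblasts, CD3E, VWF and COL1A1 were above background throughout and 6 others were so in no channel. Each array holds 43376 probe spots, of which 68.5% to 71.8% were well above background in Cy3 and 71.5% to 72.6% in Cy5. Precision is limited by the number of arrays, 2 per clone.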

How the data were processed

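Total RNA of HCT116 clones was hybridised on Agilent 2-colour arrays, all on 1 slide in 1 scan, so that no batch could be compared. The authors deposited the scanner intensity of each spot and its local background in both channels, not normalized, together with processed intensities and the log10 ratio of Cy5 over Cy3 (Feature Extraction 9.5.3.1 in the file headers, 8.5.1.1 in the submitters' processing notes). The table of log10 ratios that the authors deposited lay within 0.005 of the scanner files at all 43376 spots of each array. Between 87 and 125 outlier spots per array were left out.

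From these, log2 ratios were computed in R 4.3.3 with limma 3.58.1: normexp background correction (offset 50), loess within arrays, Aquantile between arrays, mean over the spots of a probe, then a linear model with a term per clone over all 4 arrays and empirical Bayes. The threshold was p under 0.001, as in the study's methods, and Benjamini-Hochberg adjusted p-values run over all 41000 probes. Each dye alone was fitted with limma's separate-channel model. The fits were tested on simulated data. Pathway genes were matched by accession to current symbols, which 23434 probes had, and otherwise by the array's gene name. All members are named, and of the other pathway genes the 5 probes per direction with the largest change past the threshold in each comparison. The members and lists were chosen with earlier results of these data known. Probe coordinates are those of the files (hg17). The alternatives tried were other background corrections, processed intensities, the deposited log10 table, median centring, no normalization between arrays, an intensity trend, adjusted p under 0.05, a filter on dim probes, leaving out each array and the replicate number as a block, and, chosen after the data were seen, quantile normalization of both channels. The result of 1 marker gene is not reported here.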

Additional observations from a re-analysis of the deposited data

Results flagged for a closer look

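The ratio of Cy5 over Cy3 differed between the clones past p under 0.001 (limma contrast) for 8 probes of the 9 genes, each given as clone #3-1 minus clone #4-7 on the log2 scale. It was higher in clone #3-1 for ID3 (1.97), SMAD7 (1.91), ID2 (1.55 by A_32_P69368 and 1.52 by A_23_P143143), ID1 (1.44) and TGFB1 (0.41), and lower for SMAD3 (-0.67 by A_23_P359091 and -0.76 by A_23_P48936). Over all probes, 20.0% passed the same test. For these 8 probes the difference in Cy3 alone had the opposite sign, from -2.49 for ID3 to 0.93 for SMAD3, while in Cy5 alone it lay between -0.51 and 0.17. The difference in the ratio is the Cy5 difference minus the Cy3 difference. With Cy5 differences this small, the opposite sign in Cy3 follows from that and is no separate result. The part that the labelling of the channels has in these differences was not tested. With 2 arrays per clone, no clone was examined for an array far from the others.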

How the results depend on the processing

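Among the 9 genes, the count past the threshold was 4 in clone #3-1, 9 in clone #4-7 and 8 for the difference. It became 2 (2 higher, 0 lower), 5 (0 and 5) and 5 (5 and 0) with median centring, which for the pathway list gave 26 (22 and 4), 13 (4 and 9) and 6 (6 and 0) in place of 70, 62 and 47. Calls fell over the whole array too, where median centring gave 4600, 1116 and 793 in place of 12559, 10971 and 8201. In clone #3-1 the count among the 9 genes became 8 with an intensity trend and 7 with adjusted p under 0.05. Over the whole array these settings gave 17976 and 22058 in that clone. For the pathway list, the counts were 42, 34 and 23 when the offset was 0, 45, 41 and 27 with plain subtraction, 46 in clone #3-1 and 31 for the difference with processed intensities, and, with adjusted p under 0.05, 95 in clone #4-7 and 83 for the difference. The matching counts over the whole array were 6524, 4974 and 3295, then 6405, 5808 and 3489. They were 8078 and 4828 with processed intensities and 19258 and 16303 with adjusted p under 0.05. Leaving out 1 array gave 3 to 5, 7 to 8 and 7 to 8 for the members and 45 to 56, 34 to 61 and 30 to 35 for the list. The pathway count fell to 45 without clone #3-1 replicate 1 in clone #3-1, to 34 and 36 in clone #4-7 without its replicate 1 and without its replicate 2, and to 30 for the difference without clone #4-7 replicate 1. Where 1 array of a clone remained, its spread was taken from the other clone.

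The replicate block gave 5, 9 and 8 member probes and 61, 60 and 40 list probes, and moved none of these counts by over 1.5 times. Over the whole array it gave 10685, 9215 and 6575. The replicate numbers do not pair the samples by their labels, and the deviations of same-numbered arrays had a correlation of -0.0167 over 28541 probes.

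Of the log2 ratios of member probes under all alternatives, 432 kept direction and call, 32 lost the call, 18 gained it and 7 reversed. None of the reversed ratios was past the threshold to begin with. TGFB2 reversed in clone #3-1 (0.11 without its replicate 1) and for the difference (-0.45 with median centring, -0.042 without clone #3-1 replicate 2). TGFBI reversed in clone #3-1 (-0.58 with median centring, -0.017 without its replicate 2), as did ID1 (0.65) and ID3 (0.52) with median centring. With 1 clone #3-1 array left out, these ranged from -0.16 to 0.11 and from -0.042 to 0.22 for TGFB2 and from -0.017 to 0.027 for TGFBI. The cause was not tested. Without normalization between arrays the ratios are the same, since Aquantile changes mean intensities only. The intensity trend, adjusted p, the filter on dim probes and the replicate block also leave a member's ratio as it was. So does leaving out an array of the other clone, for the ratio of a single clone. Under these settings a call could change but a direction could not, so the number that kept direction is partly fixed in advance.

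In Cy3 alone, 9 member probes passed, 5 with median centring, and the difference reversed for TGFB2 (0.082, median centring) and TGFBR1 (0.0080, processed intensities). In Cy5 alone, 1 passed, 2 with plain subtraction, with quantile normalization and without clone #4-7 replicate 1, and 0 with processed intensities, median centring and no normalization between arrays. There the difference reversed for TGFB1 (0.16, 0.20, 0.012 and 0.0028 with processed intensities, median centring, and without clone #3-1 replicate 2 and clone #4-7 replicate 1), TGFB2 (0.095 with processed intensities, 0.017 without clone #3-1 replicate 1), TGFBR1 (-0.075 with plain subtraction, -0.23 with no normalization between arrays, -0.0088 with quantiles, -0.036 without clone #3-1 replicate 1, -0.011 without clone #4-7 replicate 2) and TGFBI (0.82 with processed intensities, 0.13 without clone #4-7 replicate 2). With no normalization between arrays it also reversed for SMAD3 A_23_P359091 (-0.025), ID1 (-0.089), ID2 A_23_P143143 (-0.083) and ID2 A_32_P69368 (-0.11), the last also with plain subtraction (-0.00013) and quantiles (-0.0077). Dim probes (TGFB2, TGFBI) have no firm ratio. Over the arrays left out, the Cy5 difference ranged from -0.029 to 0.012 for TGFB1, -0.21 to 0.017 for TGFB2, -0.036 to 0.053 for TGFBR1 and -0.29 to 0.13 for TGFBI.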
